A study of Mus musculus with 68 samples.

Results

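Kinesins are motor proteins that walk along microtubules, and their genes were followed here across single cells of the embryonic mouse cerebral wall. The members were all genes whose symbol in the array's platform annotation is Kif followed by a digit, which gave 37 genes measured by 99 probe sets, of 45101 probe sets on the array. RefSeq lists 38 protein-coding mouse genes named in this way. By their textbook roles, 11 of the 37 were placed in a mitotic class, 15 in a transport class and 11 in a class of other kinesins. The signal that the study's RNA spikes set for 20 copies per cell, 9.77 on the log2 scale, was taken as the limit of detection, and a gene at or above it is called over 20 copies. By this measure 29 genes were detected in at least 1 array, among 10741 such genes of the series, and 23 were over 20 copies in at least 5 of the 67 cells used. The values of these 23 are described, and the other members are given as counts.

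Each array held the amplified cDNA of 1 cell of a CD1 mouse. The groups were 30 cells from the dorso-lateral cerebral wall at embryonic day 11 (E11), of which 29 were used, and 28 cells from the ventricular and subventricular zones (VZ/SVZ) at E16, all selected by PCR of marker genes as progenitor populations. Smaller groups held apical progenitors (APs), which line the ventricle and divide there: 3 taken at E12, 3 from neurospheres grown for 3 days from E11 wall, and 4 taken at E14 after overexpression of NICD and p18 (NICD/p18 APs). NICD is the active intracellular part of Notch1, driven from the ubiquitous CAG promoter, and p18 is an inhibitor of the G1 kinases Cdk4 and Cdk6, driven from the EF promoter. Both were introduced by in utero electroporation at E11, 3 days before the cells were taken, so that only cells that took up the plasmids carried them. EGFP was introduced with them, and EGFP-positive cells were picked. The labels give no cell type for the E11 and E16 cells and name no embryo, litter or culture for any cell. Some cell names of a group share a number, such as M5A and M5K, whose meaning the labels do not give. Each group therefore counts as 1 sample, no test was possible between groups, and all differences and correlations below are descriptions of these cells.

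The neurosphere and E12 APs had been picked as Ki67-positive by PCR, and the NICD/p18 APs had been found Ki67-negative by it, so low levels of proliferation genes in the last group had been checked for beforehand. On the arrays the signal of Mki67, the gene of that marker, was between 1341 and 7891 in the 6 E12 and neurosphere APs and between 0.940 and 18.8 in the 4 NICD/p18 APs. The p18 gene Cdkn2c had signals of 57.1 to 469 in the NICD/p18 APs and of 20.5 to 969 in the other 6, and Notch1 of 587 to 1601 and of 863 to 3772. Neither was higher in the NICD/p18 APs, but their probe sets may lie outside the expressed constructs, in which case these values check nothing. Of 12 AP markers, the median NICD/p18 AP had 9 over 20 copies, the median E12 AP 8 and the median neurosphere AP 6, where the median E11 cell had 6 and the median E16 cell 8. Hes1 and Nes were over 20 copies in no NICD/p18 AP, and Hes1, Slc1a3 and Prom1 in no neurosphere AP. The NICD/p18 APs M5K and M6C also held 12 and 10 of 19 neuron markers. In the study's principal component plot, some of these 4 cells lay among E14 APs and the others near E14 intermediate progenitors. The paper proposes that the second position may stem from an effect of p18 on differentiation, and its caption does not name the cells. The name AP is kept here as the labels give it. The 10 arrays of these 3 groups had been deposited with a trimmed mean of 500, against 47.5 to 297.5 for the 58 E11 and E16 arrays, and all 68 were quantile normalised together. Scaling and group cannot be told apart here, so the E11 and E16 cells were not compared with the others. The RNA spikes also differed. The phe spike, added at 20 copies, had a median signal of 3308 in the NICD/p18 APs and of 929 and 758 in the E12 and neurosphere APs. It ran from 1176 to 4678 in the NICD/p18 APs, from 290 to 1571 in the E12 and from 13.1 to 1662 in the neurosphere APs. Over 20 copies therefore names a fixed signal and not a copy number in each cell. The part of the spike in the differences below was not tested, although scaling to the lys spike was tried.

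A kinesin couples the hydrolysis of ATP to steps along a microtubule. Mitotic kinesins build and move the spindle and the midbody of dividing cells, and most of them are made only in G2 and M phase. Transport kinesins carry vesicles, mitochondria and proteins, and in neurons they supply the axon, as heavy chains such as Kif5 that bind light chains and cargo adaptors. APs of the cortex divide at the ventricular surface, so a sample of single cells catches them at all phases of the cycle, while neurons have left the cycle and extend axons.

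The mitotic kinesins shared sequence features at their starts. Short words mark many promoters of genes expressed in G2 and M phase: the CCAAT box, bound by the factor NF-Y, and the cell cycle homology element, written TTTGAA or TTCGAA. In the RefSeq table of promoters on GRCm38.p6, from 250 bases before to 50 after each start, 31 of the 37 members had an entry, with 35 promoters in all. Kif5a, Kif5b, Kif13b, Kif20a, Kif21b and Kif28 had none there. Counting both strands, TTTGAA stood in 9 of 10 mitotic kinesin promoters, in 1 of 13 transport kinesin promoters and in 2 of 12 of the other kinesins, against 17.89% of all 32851 promoters. CCAAT stood in 6 of 10 mitotic, 4 of 13 transport and 5 of 12 other promoters, against 37.41% of all. TTCGAA, held by 1.562% of all promoters, was found in that of Kif24 only. CCAAT together with either form of the element occurred in 6 of 10 mitotic promoters, in 0 of 13 transport promoters, in 3 of 12 promoters of the other kinesins and in 7.525% of all promoters. A match is a description of the sequence and not a shown binding site.

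The following 4 mitotic and 2 transport promoters are picked examples of this contrast, 5′ to 3′ on the gene's strand with matched letters in capitals. They are Kif4, chrX:100625815-100626114 (+ strand), Kif11, chr19:37376132-37376431 (+ strand), Kif22, chr7:127042371-127042670 (- strand), Kif23, chr9:61946750-61947049 (- strand), Kif5c, chr2:49619036-49619335 (+ strand), and Kif21a, chr15:91049902-91050201 (- strand).
Kif4: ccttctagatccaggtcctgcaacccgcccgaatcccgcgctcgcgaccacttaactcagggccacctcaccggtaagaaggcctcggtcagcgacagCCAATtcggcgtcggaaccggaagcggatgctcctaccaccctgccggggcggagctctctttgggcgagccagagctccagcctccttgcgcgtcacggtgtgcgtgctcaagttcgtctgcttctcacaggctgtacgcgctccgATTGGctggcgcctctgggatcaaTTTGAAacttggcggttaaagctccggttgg
Kif11: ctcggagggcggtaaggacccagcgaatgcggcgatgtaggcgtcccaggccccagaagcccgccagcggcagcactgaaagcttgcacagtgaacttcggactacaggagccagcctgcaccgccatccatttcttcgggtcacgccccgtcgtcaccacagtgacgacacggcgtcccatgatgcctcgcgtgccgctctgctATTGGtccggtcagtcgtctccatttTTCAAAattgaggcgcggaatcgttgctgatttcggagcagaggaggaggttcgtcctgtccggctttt
Kif22: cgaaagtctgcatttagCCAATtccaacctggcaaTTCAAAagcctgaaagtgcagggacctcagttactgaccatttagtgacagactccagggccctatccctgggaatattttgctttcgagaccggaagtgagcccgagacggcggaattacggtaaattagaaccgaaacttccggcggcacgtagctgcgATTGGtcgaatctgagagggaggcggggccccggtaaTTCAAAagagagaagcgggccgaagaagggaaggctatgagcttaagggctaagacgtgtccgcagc
Kif23: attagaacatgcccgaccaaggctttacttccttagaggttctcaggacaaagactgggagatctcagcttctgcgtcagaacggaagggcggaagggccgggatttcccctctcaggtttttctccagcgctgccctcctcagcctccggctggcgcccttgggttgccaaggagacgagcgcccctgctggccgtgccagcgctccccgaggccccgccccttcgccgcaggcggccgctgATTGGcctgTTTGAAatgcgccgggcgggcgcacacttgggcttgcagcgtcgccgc
Kif5c: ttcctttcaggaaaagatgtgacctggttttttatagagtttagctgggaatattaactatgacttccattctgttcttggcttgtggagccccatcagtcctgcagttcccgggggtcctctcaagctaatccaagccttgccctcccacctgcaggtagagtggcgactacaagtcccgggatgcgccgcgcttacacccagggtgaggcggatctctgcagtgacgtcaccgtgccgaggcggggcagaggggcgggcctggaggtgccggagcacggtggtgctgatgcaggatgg
Kif21a: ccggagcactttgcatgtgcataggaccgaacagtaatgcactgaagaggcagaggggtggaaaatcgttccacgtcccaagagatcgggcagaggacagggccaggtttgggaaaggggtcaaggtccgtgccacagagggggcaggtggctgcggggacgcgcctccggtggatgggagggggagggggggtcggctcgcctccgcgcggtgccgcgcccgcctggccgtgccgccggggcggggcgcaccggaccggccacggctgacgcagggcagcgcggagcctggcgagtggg
With the start at 0, TTTGAA on either strand began at 19 in Kif4, at -19 in Kif11, at -215 and -17 in Kif22 and at 2 in Kif23. A CCAAT box lay upstream of it in all 4, with its first base at -5 in Kif4, -45 in Kif11, -54 in Kif22 and -7 in Kif23. Neither word occurred in the Kif5c and Kif21a windows. Among the mitotic kinesins only the Kif18a window held neither. Those of Kif2c, Kif15 and Kif20b held TTTGAA without CCAAT. In the transport class, Kif1b, Kif3a and Kif3b held CCAAT and a Kif1a promoter held TTTGAA.

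Of the 11 mitotic kinesins, 8 were over 20 copies in at least 5 cells. Kif14 passed in 2 E16 cells only, and Kif15 and Kif20b, motors of the spindle and the midbody, in no array. The most widely detected in the E11 cells were Kif22, a chromokinesin that pushes chromosome arms, Kif2c, which depolymerises microtubules at centromeres, and Kif20a, which acts at the midzone in cytokinesis. Kif22 was over 20 copies in 25 of 29 E11 and 18 of 28 E16 cells, Kif2c in 20 and 13, and Kif20a in 19 and 16. Kif23, a subunit of centralspindlin, passed in 18 E11 and 15 E16 cells, and Kif4, a chromokinesin that also organises the midzone, in 18 and 13. Kif18a, which dampens chromosome movements, passed in 11 and 10 cells, Kif11, the motor that separates the spindle poles, in 5 and 7, and Kif18b in 2 and 4. Because probe sets differ in brightness, these counts do not rank the genes by copy number.

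Within a stage, each of these genes ranged from background to well over 20 copies. Kif20a ran from 0.473 to 8603 in the E11 cells, with a median of 2069, and from 0.933 to 6618 in the E16 cells, with a median of 1065. Kif23 ran from 3.40 to 5005 at E11 (median 1312) and from 1.66 to 3920 at E16 (median 924). Kif4 ran from 5.69 to 3031 at E11 (median 1218) and from 4.05 to 3417 at E16 (median 737). Low and high cells were thus found at both stages.

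**Figure D1:**
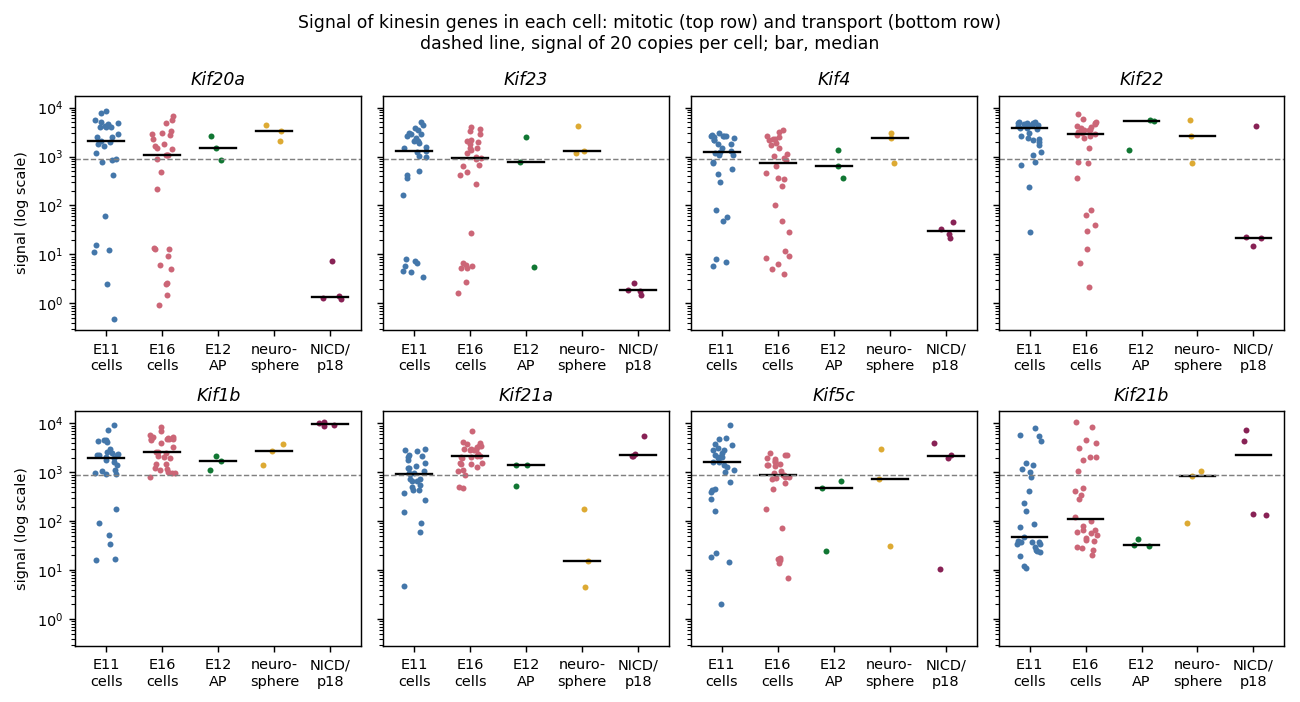
Normalised signal (log axis) of 4 mitotic kinesins (top) and 4 transport kinesins (bottom) in each cell of the 5 groups, with the median as a bar and the signal of 20 copies as a dashed line. In the 4 NICD/p18 APs Kif20a, Kif23 and Kif4 lay below the line and Kif1b and Kif21a above it.

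From E11 to E16 no kinesin gene changed 2-fold in mean floored signal, and few genes of the series did. Differences are given as the mean log2 signal of the first group minus that of the second, after values under the 20-copy signal were raised to it, and a difference of at least 1 counted as past 2-fold. Between E16 and E11, 0 of 29 members passed in either direction, where 0.466% of all genes were higher and 0.307% lower by this rule. The median difference of the 8 mitotic kinesins was -0.21, with 6 of them below 0, against a median of 0.0004 over all genes. Kif20a had the lowest value, -0.54, with a between-cell SD of 1.14 at E11 and 0.947 at E16. The 11 transport kinesins had a median of 0.13. In this class Kif21a, a motor that curbs microtubule growth in axons, was over 20 copies in 15 of 29 E11 cells and in 26 of 28 E16 cells, with a difference of 0.85 and SDs of 0.620 and 0.774. Kif3c, a partner of Kif3a in neuronal transport, passed in 4 E11 and 13 E16 cells (difference 0.54). Kif5c, a heavy chain of conventional kinesin enriched in neurons, passed in 19 and 15 cells (difference -0.55). The difference of Kif21a was larger than its pooled SD between cells (0.70), and those of Kif20a, Kif3c and Kif5c were smaller than theirs. The floor and the use of the mean matter here: Kif21a had 1.64 without the floor. With medians over cells Kif21a was past 2-fold higher and Kif2c past 2-fold lower at E16. A change in the mix of cell types with stage and a change within cells cannot be told apart: the median level of the AP markers was 10.83 on the log2 scale at E11 and 11.39 at E16, that of the neuron markers 9.88 and 9.96, and that of the intermediate progenitor markers 9.82 and 9.93. The last 2 pairs of medians lie near the floor of 9.77 and do not show the share of such cells. Single cells reached intermediate progenitor levels of 12.48 at E11 and 11.36 at E16. The study classed more of its E16 than of its E11 cells as intermediate progenitors.

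Within a stage, the mitotic kinesins followed the G2/M level of the cell. This was the mean floored log2 signal of 24 G2/M genes such as Top2a, Cdk1 and Plk1. It included no member, but Cenpe, which is on that list, also encodes a kinesin. At E11, Spearman's rho with that level was at least 0.5 for 6 of 8 mitotic kinesins (Kif2c, Kif4, Kif18a, Kif20a, Kif22 and Kif23), where 1.28% of all genes reached it. The values ran from 0.31 for Kif11 to 0.68 for Kif20a, over 29 cells. At E16, 5 of 9 reached it (Kif2c, Kif4, Kif20a, Kif22 and Kif23), against 1.3% of all genes, with rho up to 0.81 for Kif20a over 28 cells. None of the transport or other kinesins reached 0.5 at either stage. Genes of the list itself, each against the rest of the list, had a median rho of 0.64 at E11 and 0.71 at E16. Kif18a had a rho of 0.51 at E11 and of 0.27 at E16, and Kif3c the lowest of the family, -0.57 at E11 and -0.46 at E16. All genes of a cell share its array and amplification, and the G2/M level had a rho of 0.15 at E11 and 0.40 at E16 with the deposited trimmed mean of the array. Along the G1/S level the mitotic kinesins lay between -0.27 and -0.01 at E11 and between -0.34 and 0.22 at E16.

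The mitotic kinesins rose and fell together only in part. Over the 28 pairs of the 8 genes, the median rho was 0.33 at E11 and 0.35 at E16, and 2 pairs at E11 and 7 at E16 reached 0.5. The highest were Kif2c with Kif22 at E11 (0.62) and Kif4 with Kif23 at E16 (0.76). Pairs of a mitotic and a transport kinesin had medians of -0.05 and -0.13, and 0 of 88 and 0 of 80 reached 0.5. Per cell, a median of 5 of the 8 mitotic kinesins was over 20 copies at E11 and of 3.5 at E16, and 7 cells of each stage held 6 or more. Over the 57 E11 and E16 cells, the non-kinesin genes most like the mean of the mitotic kinesins were Ube2c (rho 0.82), Cks2 (0.78), Kpna2 (0.76), H2ax (0.75) and Psrc1 (0.74). Ube2c belongs to the G2/M list.

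**Figure D2:**
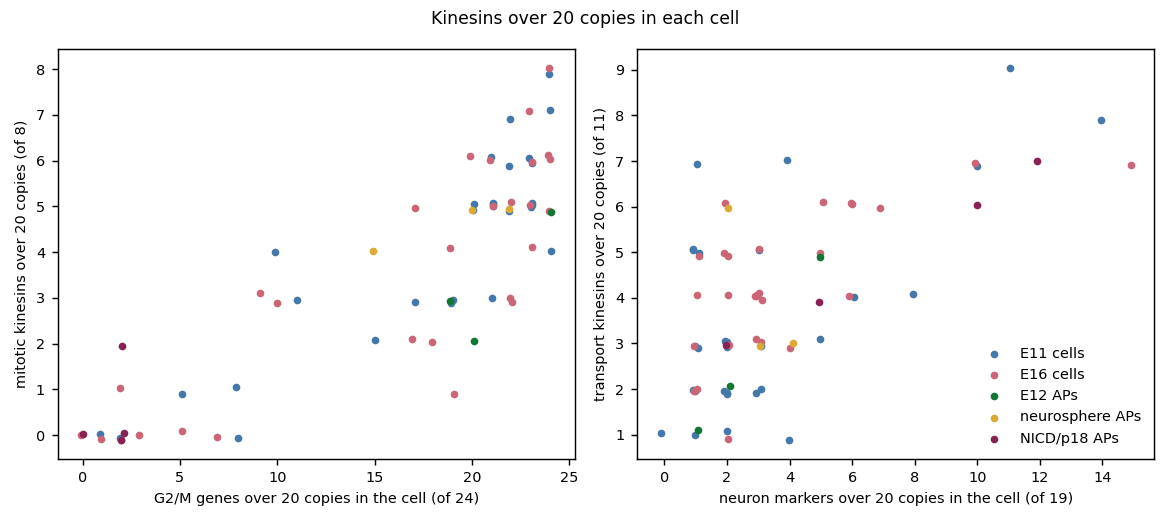
Left, number of mitotic kinesins over 20 copies (of 8) against the number of G2/M genes over 20 copies (of 24) in each cell; right, transport kinesins (of 11) against neuron markers (of 19), with points shifted slightly to separate them. Cells with 2 or fewer G2/M genes, among them the 4 NICD/p18 APs, held 0 to 2 mitotic kinesins.

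Of the 15 transport kinesins, 11 were over 20 copies in at least 5 cells and Kif17 in none. Kif1b, which carries mitochondria and synaptic vesicle precursors, was the most widely detected, in 23 of 29 E11 and 27 of 28 E16 cells. Its signal ran from 16.1 to 9378 at E11 (median 1937) and from 784 to 8547 at E16 (median 2570). Kif5b, the heavy chain found in most cell types, passed in 12 E11 and 18 E16 cells, and Kif5a, its neuronal relative, in 5 and 1. Kif21b, which regulates microtubules in dendrites and axons, passed in 8 and 9 cells. Kif1a, a carrier of synaptic vesicle precursors, passed in 4 E11 cells and in 0 of 28 E16 cells. Kif3a and Kif3b, the paired motors of intraflagellar transport, passed in 4 and 6 E11 cells and in 5 and 4 E16 cells.

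Few transport kinesins followed the neuron level, the mean over markers such as Tubb3, Dcx and Stmn2. At E11, 1 of 14 reached a rho of 0.5, Kif21b with 0.52, against 1.28% of all genes. At E16, 2 of 13 did, Kif21b with 0.70 and Kif21a with 0.58, against 0.989% of all genes. Kif5c had rhos of 0.44 and 0.27, Kif3c of 0.41 and 0.28, and Kif1b of 0.09 and -0.08. Kif21b also went with the marker level of intermediate progenitors, which give rise to neurons. Its rho was 0.61 at E11 and 0.66 at E16. Kif5c had 0.48 and 0.498 with that level, under the rule of 0.5. The share of all genes reaching the rule was not counted for this list. With the AP markers Kif21b had rhos of -0.59 and -0.62. None of the mitotic kinesins reached 0.5 with the neuron level. The non-kinesin genes most like Kif5c over the 57 cells were Sox11 (rho 0.60) and Sox4 (0.59), transcription factors of committed neuronal cells, followed by Mex3b (0.53), Ahsa2 (0.51) and Trp53i11 (0.51).

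**Figure D3:**
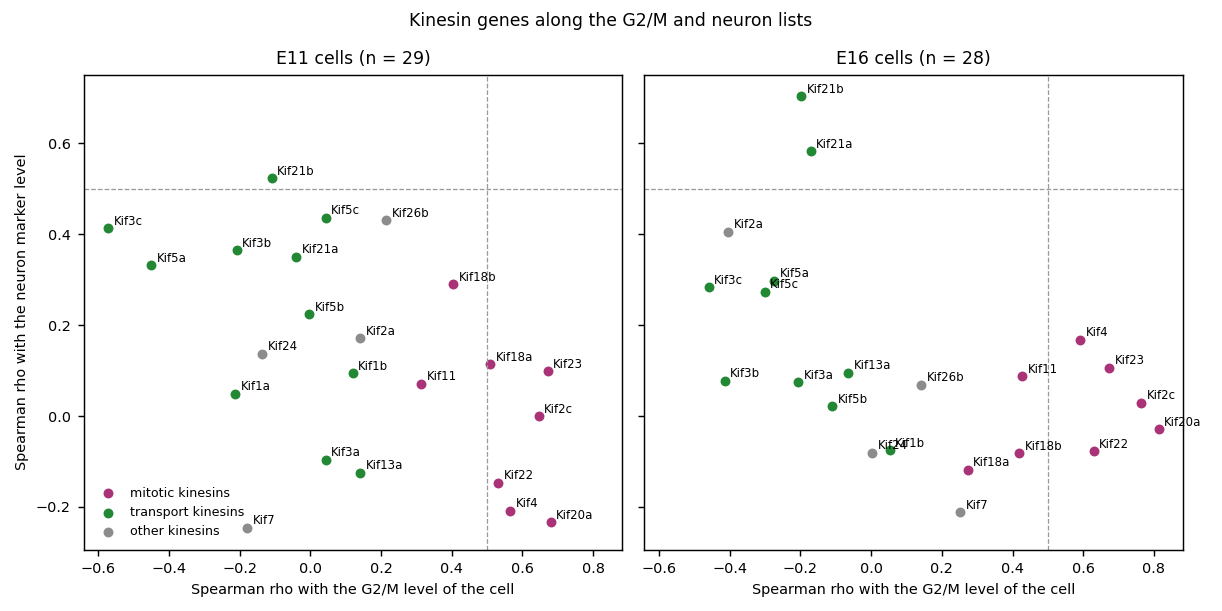
Spearman's rho of each described kinesin with the G2/M level (x axis) and with the neuron marker level (y axis) of the cell, over 29 E11 cells (left) and 28 E16 cells (right), with dashed lines at 0.5. Mitotic kinesins lie to the right, up to 0.81 for Kif20a, and Kif21b stands highest, at 0.52 and 0.70.

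A few cells lacked every mitotic kinesin. None of the 8 was over 20 copies in 3 of 29 E11 and 6 of 28 E16 cells. The 3 E11 cells, 30F, 32J and 43D, had 14, 11 and 10 neuron markers over 20 copies, and 8, 9 and 7 of 11 transport kinesins, where the median E11 cell had 2 neuron markers and 3 transport kinesins. In these cells the Kif21b signal was 8177, 1149 and 4343 and that of Kif5a 3419, 4138 and 2395. Among the 6 E16 cells, 80K and 76J had 15 and 10 neuron markers and 7 transport kinesins each, and Kif21b signals of 3998 and 10433. The E16 cells 71E, 72J, 75A and 81E had 6, 7, 2 and 1 neuron markers with 6, 6, 5 and 4 transport kinesins. No mitotic kinesin over 20 copies thus went with many neuron markers in the 3 E11 cells but not in every E16 cell. Cell 30F also held Cajal-Retzius markers and cell 81E microglial markers, and leaving such cells out changed none of the values for the stages by more than the spread between cells.

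In the NICD/p18 APs the mitotic kinesins were at or near background. Kif20a had signals of 7.28, 1.24, 1.29 and 1.42 in the NICD/p18 APs M5A, M5K, M6C and M6H. It had 4505, 2029 and 3352 in the neurosphere APs W2G, W2O and W6D, and 1482, 846 and 2571 in the 3 E12 APs. The NICD/p18 APs lay below both other groups, without overlap. Kif23 had 2.64, 1.50, 1.80 and 1.87 in the NICD/p18 APs, 4241, 1168 and 1288 in the neurosphere APs, and 5.54, 786 and 2463 in the E12 APs. Kif4 had 33.5, 21.6, 25.8 and 46.3 in the NICD/p18 APs, 3011, 2354 and 740 in the neurosphere APs, and 648, 363 and 1391 in the E12 APs. For both genes the NICD/p18 APs were again the lowest, but 2 of the 3 E12 APs were themselves under 20 copies.

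Kif2c and Kif22 each had 1 exception. Kif2c had 2278 in M5A and 3.43, 16.5 and 37.7 in the other NICD/p18 APs, against 1578 to 3696 in the neurosphere and 1354 to 4279 in the E12 APs. Kif22 had 4251 in M5A and 15.2, 21.5 and 22.7 in the others, against 727 to 5579 and 1372 to 5706. M5A thus lay within the range of both other groups, and the other 3 below both. All 3 probe sets of Kif22 were over 20 copies in M5A (890, 1474 and 4251), whereas a further probe set of Kif2c read 20.5 there. M5A had 2 of 24 G2/M genes over 20 copies, as did M5K and M6H. Kif11 and Kif18a were under 20 copies in all 10 APs of the 3 groups, and Kif18b passed in the neurosphere AP W6D only.

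Counted over the family, the NICD/p18 APs were past 2-fold lower than the neurosphere APs for 4 of 9 mitotic kinesins detected in the series, Kif20a (-1.85), Kif2c (-1.32), Kif23 (-1.09) and Kif4 (-1.08), against 3.39% of all genes. All 3 neurosphere APs were over 20 copies for Kif20a and Kif23 and no NICD/p18 AP was, so these 2 differences are lower bounds of the size. The NICD/p18 APs were lower than the E12 APs for Kif22 (-1.41) and Kif2c (-1.11), 2 of 9, against 3.96% of all genes. The median of the 8 described mitotic kinesins was -0.97 against the neurosphere and -0.36 against the E12 APs, and that of the 24 G2/M genes -1.43 and -1.74, with all 24 lower in both. Between the neurosphere and E12 APs, Kif20a was higher (1.07), the only member past 2-fold, where 1.93% of all genes were higher and 2% lower. Several of these calls rested on 1 cell. Without W2G, Kif23 had -0.50 and Kif4 -0.72 against the neurosphere APs, and without W2O Kif4 had -0.90. Against the E12 APs, Kif2c had -0.69 without the E12 AP listed last above and -0.996 without M5K, M6C or M6H. Kif20a between neurosphere and E12 APs had 0.81 without W2G and 0.68 without the middle E12 AP. Kif20a and Kif2c against the neurosphere APs and Kif22 against the E12 APs were past 2-fold with any 1 cell left out. The comparisons share cells, so their values are given side by side and not as repeats of each other. Without probe sets that can match several transcripts, chosen after seeing the data, Kif22 had a difference of 0.0082 and Kif2c of -0.32 against the E12 APs, where the remaining probe sets stood in for both genes. With the mean of all probe sets of a gene in place of the brightest, Kif23 had 0 against the neurosphere APs and Kif20a -1.85.

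Among the APs of these 3 groups, several transport kinesins had their highest signals in the NICD/p18 APs. Kif1b had 10650, 8809, 9395 and 10370 in M5A, M5K, M6C and M6H, 1437, 3735 and 2775 in the neurosphere APs, and 1113, 2128 and 1718 in the E12 APs. All 4 lay above all 6, and another probe set gave the same order with a narrow gap, 2668 to 5778 against 17.4 to 2661, while 3 further sets did not, and averaged over its sets Kif1b had a difference of 0 from both groups. Kif21a had 5553, 2148, 2348 and 2121 in the NICD/p18 APs, 181, 15.2 and 4.60 in the neurosphere APs, and 1394, 1435 and 521 in the E12 APs. By this probe set the 3 groups did not overlap, with the neurosphere APs lowest. By the other detected set of Kif21a the neurosphere APs were again lowest (17.9 to 26.3). The NICD/p18 APs (959 to 3993) and E12 APs (97.2 to 1788) overlapped by it. Kif5b was over 20 copies in 3 of 4 NICD/p18 APs and in 1 of 3 in each other group, with overlapping signals of 513 to 1676, 255 to 945 and 148 to 1032.

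Kif5a and Kif21b were high in the same 2 NICD/p18 APs. Kif5a had 5656 in M5K and 2997 in M6C, and 6.12 and 13.9 in M5A and M6H, against 3.71 to 89.8 in the other 6 APs. Kif21b had 7209 in M5K and 4431 in M6C, and 131 and 144 in M5A and M6H, against 1046, 822 and 90.5 in the neurosphere APs and 30.9 to 43.4 in the E12 APs. The neurosphere APs W2G and W2O were thus above M5A and M6H, and W2G was over 20 copies. M5K and M6C were the NICD/p18 APs with the most neuron markers over 20 copies, 12 and 10 of 19, where M5A had 5, M6H 2 and the other 6 APs 1 to 5. The mean level of these markers ran from 9.95 to 11.06 in the NICD/p18 APs, from 9.91 to 10.15 in the neurosphere and from 9.79 to 9.98 in the E12 APs, and 6 of the 19 (Gap43, Ina, Nefm, Nefl, Snap25 and Syt1) were over 20 copies in none of the NICD/p18 APs. The part of these markers in the Kif5a and Kif21b values was not tested.

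Past 2-fold, 4 of 14 transport kinesins were higher in the NICD/p18 than in the neurosphere APs, Kif1b (1.99), Kif21a (1.67), Kif21b (1.26) and Kif5a (1.12), against 2.7% of all genes. Compared with the E12 APs, 5 of 14 were higher, Kif1b (2.61), Kif21b (1.35), Kif21a (1.21), Kif5c (1.19) and Kif5a (1.12), against 3.02% of all genes. No transport kinesin was past 2-fold lower in either. With 1 cell left out, Kif1b was past 2-fold in both comparisons and Kif21a in that with the neurosphere APs, whereas Kif21a had 0.87 without M5A and 0.97 without the last E12 AP against the E12 APs. Without M5K, Kif5a had 0.59 in both comparisons and Kif21b 0.69 and 0.78. Without M6C, Kif5a had 0.90 in both, Kif21b 0.93 against the neurosphere APs and Kif5c 0.86 against the E12 APs. Without M5K and M6C together, an alternative chosen after seeing the data, Kif1b (2.09 and 2.72) and Kif21a (1.98 and 1.51) were past 2-fold, whereas Kif21b had -0.089 and 0 and Kif5a 0 in both. After scaling to the lys spike in place of quantile normalisation, Kif21a was past 2-fold against the neurosphere APs (1.33), and Kif1b (1.64) and Kif21b (1.17) against the E12 APs, while Kif1b had 0.62 against the neurosphere APs. Age, culture and the transgenes all differ between these groups and cannot be told apart.

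**Figure D4:**
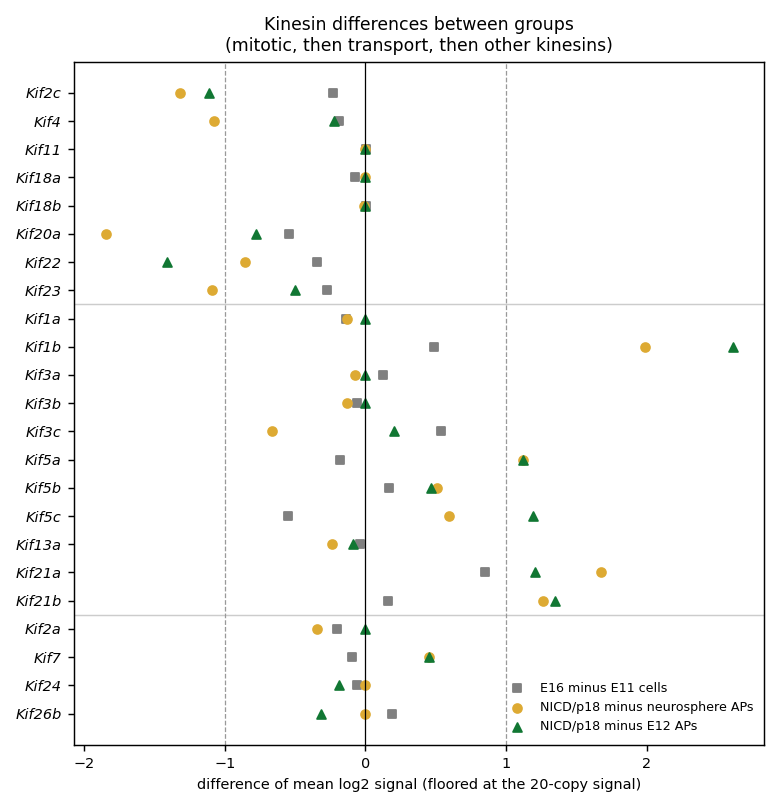
Difference of mean log2 signal, floored at the 20-copy signal, of each of the 23 described kinesins for E16 minus E11 cells (squares), NICD/p18 minus neurosphere APs (circles) and NICD/p18 minus E12 APs (triangles), with dashed lines at 2-fold. Kif20a lies lowest, at -1.85, and Kif1b highest, at 2.61; points at 0 include genes under 20 copies in both groups.

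Kinesin adaptors and the dynein motor were counted by the same rule. The list of kinesin light chains and cargo adaptors also held the motors Kifc2 and Kifc3, which are not members. Of its 15 detected genes, 0 passed 2-fold between the stages or between the NICD/p18 and neurosphere APs. Between the stages 0.466% of all genes were higher and 0.307% lower, and between these APs 2.7% and 3.39%. Spag9, a scaffold that links kinesin-1 to cargo, was higher in the NICD/p18 than in the E12 APs (1.50), against 3.02% of all genes. The adaptor Fez1 was lower in the neurosphere than in the E12 APs (-1.21), against 2% of all genes. Of 19 detected genes of dynein and dynactin, the motor that walks the other way and its activator, 0 passed 2-fold between the stages, and 4 were higher in the NICD/p18 than in the neurosphere APs and 0 lower, where 2.7% of all genes were higher. They were the heavy chain Dync1h1 (1.80), the light chain Dynll2 (1.25) and the dynactin subunits Dctn3 (1.13) and Dctn2 (1.02). Compared with the E12 APs, 1 was higher in the NICD/p18 APs, Dync1h1 (1.26), and 2 were lower, Nde1 (-1.27) and Dctn6 (-1.10), against 3.02% and 3.96% of all genes. In the neurosphere APs 0 were higher and 2 lower than in the E12 APs, Ndel1 (-1.32) and Dctn6 (-1.08), against 1.93% and 2% of all genes. Nde1, a dynein regulator needed for progenitor division, followed the G2/M level, with a rho of 0.48 at E11 and 0.60 at E16, and Dynll1 had -0.12 and 0.55.

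Among the other kinesins, 4 of 11 were over 20 copies in at least 5 cells and 6 in at least 1. Kif2a, which trims microtubules in growing axons, passed in 7 E11 and 5 E16 cells, and its rho with the G2/M level was 0.14 at E11 and -0.40 at E16. Kif7, a regulator of Hedgehog signalling in cilia, passed in 6 and 3 cells, Kif26b in 3 and 3, and Kif24 in 2 and 2. Probe sets of a gene often disagreed. Of the 99 kinesin probe sets 55 were over 20 copies in at least 1 array. In the E11 cells the 2 detected sets of Kif11 passed in 5 and 4 of 29 cells, those of Kif2c in 20 and 7, those of Kif5c in 19 and 5, and those of Kif23 in 18 and 1. The counts given here are those of the set with the highest mean signal over all cells.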

How the data were processed

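Single-cell cDNA had been amplified by PCR and hybridised to a mouse expression array. The authors summarised the arrays with MAS5, and the deposited values were linear intensities per probe set. The methods also name quantile normalisation, but the deposited arrays differed in scale, so all 68 were quantile normalised here. Values under the study's 20-copy signal (9.77 on the log2 scale) were raised to it before log2 values were taken. A probe set was used if it reached that signal in at least 1 array, and a gene was represented by the set with the highest mean log2 signal. Cell E11-31i was left out, as in the study's methods. Of the 45101 probe sets, 34958 had 1 gene symbol in the platform table, 932 several and 9211 were not in it. The only further kinesin probe set, which Kif27 shares with another gene, was not used. No 2 arrays were identical among 2278 pairs. Depth does not apply to arrays; the number of cells limits precision, and PCR of 1 cell adds spread that these values cannot separate.

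Differences of means and Spearman's rho were computed with Python 3.11.15, numpy 2.4.6, pandas 2.3.3 and scipy 1.17.1, figures with matplotlib 3.10.9, and the code was tested on simulated data. The fold rule was 1 on the log2 scale and the rho rule 0.5. Most counts of genes past a rule stand beside the share of all genes past it, and counts of gene pairs do not. Named genes were all members, with values for those over 20 copies in at least 5 cells, genes of the fixed lists, and the 5 genes most like the mitotic mean and Kif5c. The members and lists were chosen with earlier results of these data known. Alternatives were the deposited scale, lys spike scaling, normalisation by deposit batch, other floors and filters, the mean of probe sets, the median over cells, and leaving out cells.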

Additional observations from a re-analysis of the deposited data

Results flagged for a closer look

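In the group of 4 NICD/p18 APs, 1 cell stood apart from the other 3 for 6 of the 11 described kinesins that had any spread above the 20-copy floor. By the same criterion chance gives about 1 in 20, but a gene over the floor in only 1 cell always meets it, which was the case for 5 of the 6. M5A stood apart for Kif2c (2278), Kif22 (4251) and Kif21a (5553). M5K stood apart for Kif3c (1786) and for Kif7 (3059). M6C stood apart for Kif13a (1944).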

How the results depend on the processing

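Values are given as mitotic kinesins first, then transport kinesins, as medians of the log2 difference, and counts are of kinesin genes past 2-fold. As reported, NICD/p18 minus neurosphere APs had -0.97 and 0.51, NICD/p18 minus E12 APs -0.36 and 0.46, and neurosphere minus E12 APs 0.11 and 0.13. On the deposited scale, NICD/p18 minus neurosphere APs had a mitotic median of -1.90, NICD/p18 minus E12 APs -1.19 and 1.18 with 5 genes lower, and neurosphere minus E12 APs a transport median of 0.54 with 4 higher and 1 lower. With normalisation within each deposit batch, the same values were -1.95, then -1.12 and 1.03 with 4 lower, against 9.54% of all genes. The last comparison had 0.55 with 4 higher and 1 lower, against 6.15% and 6.76%. With scaling to the lys spike, NICD/p18 minus neurosphere APs had -1.76 and -0.15 with 1 gene higher, where 0.817% of all genes were higher and 13.6% lower, NICD/p18 minus E12 APs had 2 genes higher, neurosphere minus E12 APs 0.59 for the transport kinesins with 5 higher, and the median rho of the mitotic kinesins with the G2/M level at E11 was 0.72 in place of 0.55. With no floor, which lets background values count, E16 minus E11 had 3 higher and 6 lower, NICD/p18 minus neurosphere APs a mitotic median of -5.36 with 16 lower, NICD/p18 minus E12 APs -5.60 and 1.71 with 10 higher and 12 lower, and neurosphere minus E12 APs 1.02 for the transport kinesins with 13 higher and 5 lower. With the floor at 0.5 of the 20-copy signal, E16 minus E11 had 1 higher, NICD/p18 minus neurosphere APs a mitotic median of -1.76, NICD/p18 minus E12 APs -0.93 and 0.94 with 4 lower, and neurosphere minus E12 APs 0.47 for the transport kinesins with 3 higher and 1 lower. The shares of all genes for these counts were, in the same order, 1.13%, 8.34%, 5.25% and 5.72%. With the mean over probe sets, NICD/p18 minus neurosphere APs had a mitotic median of -0.17 with 2 lower, against 1.99% of all genes. NICD/p18 minus E12 APs had a transport median of 0 with 2 higher and 0 lower, against 1.94% and 2.29%. The E11 mitotic rho was 0.39. With medians over cells, E16 minus E11 had 1 gene higher (Kif21a) and 1 lower (Kif2c), against 1.14% and 1.58% of all genes. Without M5K and M6C, the transport median was -0.075 against the neurosphere APs and 0 against the E12 APs, with 2 higher in each and 0 lower against E12, and Kif21b against the neurosphere APs changed sign, to -0.089. Without probe sets that can match several transcripts, the mitotic median against the neurosphere APs was -0.0060. Against the E12 APs, 0 kinesin genes were lower, where 3.37% of all genes were, and Kif22 changed sign there, to 0.0082. The last 2 settings were chosen after seeing the data. Except where the setting itself shows it, the cause was not tested.

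Leaving out 1 AP at a time gave, for NICD/p18 minus neurosphere APs, mitotic medians of -1.08 to -0.61, transport medians of 0.26 to 0.55, 2 to 5 genes higher and 2 to 5 lower. For NICD/p18 minus E12 APs it gave -0.54 to 0, 0.33 to 0.65, 3 to 5 higher and 1 to 3 lower, and for neurosphere minus E12 APs 0 to 0.32, 0 to 0.13, 0 to 3 higher and 0 to 1 lower. The shares of all genes in the first comparison ran from 3.07% to 3.60% higher and from 3.44% to 4.45% lower. In the second they ran from 3.24% to 3.85% and from 3.91% to 5.18%, and in the third from 2.31% to 3.07% and from 2.36% to 2.99%. Against the neurosphere APs, Kif20a ran from -2.16 to -1.58, Kif2c from -1.72 to -1.11, Kif1b from 1.60 to 2.29 and Kif21a from 1.34 to 1.80, all past 2-fold, but Kif23 from -1.43 to -0.50, Kif4 from -1.61 to -0.72, Kif5a from 0.59 to 1.49 and Kif21b from 0.69 to 1.71. Against the E12 APs, Kif1b (2.35 to 2.82) and Kif22 (-2.08 to -1.05) stayed past 2-fold, but Kif2c (-1.52 to -0.69), Kif21a (0.87 to 1.34), Kif21b (0.78 to 1.80), Kif5a (0.59 to 1.49) and Kif5c (0.86 to 1.59) did not, nor did Kif20a between neurosphere and E12 APs (0.68 to 1.46). A floor at the measured phe signal, no filter on low values, keeping cell E11-31i, and leaving out cells with blood, microglial or Cajal-Retzius markers moved none of these medians or counts beyond the spread. No paired analysis was possible because no label ties a cell of a group to a cell of another, cell names share numbers within groups only, and no result comes from a test. With 3 or 4 cells in the small groups, 1 cell can carry a difference, and genes under 20 copies have no order.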
